A study of Brachypodium distachyon with 6 samples.

Results

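The 7 genes described here belong to the ion homeostasis genes of *Brachypodium distachyon*, the genes that keep ion levels steady inside the plant. The study listed 14 genes under the gene ontology term ion homeostasis, out of 19538 genes with a value in root RNA, and these 7 are the 4 that it also listed under anion homeostasis (Bradi3g23066, Bradi2g41087, Bradi1g43970 and Bradi3g48590), Bradi2g60970 and Bradi2g61050, which it also listed under cellular response to iron ion starvation, and Bradi3g55480. The study took its term genes from the genes that differed between these same pruned and intact roots, so the members were selected on the contrast described here. Their differences are therefore given as a description, without a test.

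Root RNA was sequenced from 6 libraries of the inbred line Bd21, a reference line of this model grass, of which 3 came from pruned and 3 from intact seedlings. Seedlings were 2 weeks old, had grown on agar medium with sucrose and mineral salts in closed boxes, and all carried the unmodified Bd21 genotype. In pruned plants the shoot was cut with scissors down to a stub, intact plants were uncut seedlings of the same boxes, and roots were taken 2 days later. Values are in RPM, the reads of a gene after scaling each library to a total of 1000000, and the libraries held 17278649 to 28420464 reads. Pruned replicates 2 and 3 were counted from the first read of each pair only, whereas pruned replicate 1 and the 3 intact libraries used both reads. The comparison is between whole roots, in which fewer cells of a type and less RNA per cell cannot be told apart. RPM does not correct for gene length, so levels are compared between libraries and not between genes. The root label could not be set against marker genes, because the identifiers were not paired with gene names in the tables used here.

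Plants take up anions such as nitrate, phosphate and sulfate through transporters of the root plasma membrane and store a large share in the vacuole, from which other transporters release them when supply falls. Iron is scarce in soluble form, and grasses obtain it by releasing phytosiderophores, small chelators made from nicotianamine, and by taking the iron complex back up. In rice, basic helix-loop-helix transcription factors, which bind DNA as dimers, switch on these uptake genes when iron runs short. Which ion, transporter or factor each of the 7 identifiers stands for is not given by the sources used here beyond the ontology terms named below.

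The 4 anion homeostasis genes were all higher in pruned roots, by 1.72 to 4.12 times in mean RPM, and the 2 iron starvation genes and Bradi3g55480 were all lower, at 0.42 to 0.60 of the intact mean. In each of the 7 genes the values of the 3 pruned and the 3 intact libraries did not overlap. Among all 19538 genes, every pruned library lay above every intact library in 33.4% and below in 22.7%. By limma's moderated test on log2(RPM + 0.5), with Benjamini-Hochberg adjusted p of at most 0.05, 30.1% of all genes were called higher and 20.2% called lower. The 4 higher and 3 lower members were all on the called side, which their selection fixed. With an additional 2-fold change, 3 members were called higher (all but Bradi3g48590 of the anion homeostasis genes) and 1 lower (Bradi3g55480), where 2.54% of all genes were called higher and 1.72% lower.

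**Figure D1:**
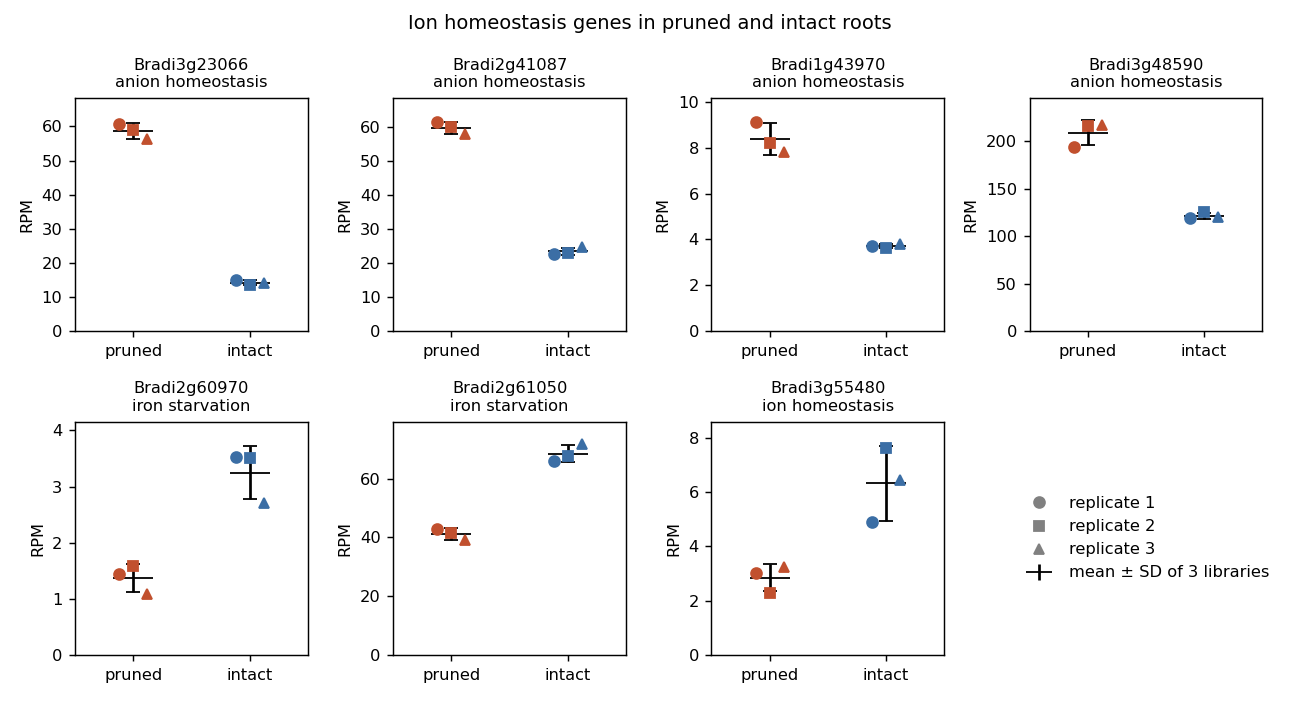
RPM of the 7 genes in each library of pruned (left, orange) and intact (right, blue) roots, with 1 panel and 1 scale per gene. Symbols are the 3 replicates, and the horizontal line and bars are their mean and SD; the upper row holds the 4 anion homeostasis genes, which are all higher in pruned roots, and the 3 genes of the lower row are all lower.

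Bradi3g23066, which the study also listed under transporter activity, had 60.7, 59.0 and 56.2 RPM in pruned roots, against 14.9, 13.6 and 14.2 RPM in intact roots. The lowest pruned library was thus far above the highest intact one, and the groups did not overlap. Its mean was 58.6 ± 2.29 RPM in pruned and 14.2 ± 0.632 RPM in intact roots (SD, n = 3 each), a log2 fold change of 2.00 (SE 0.064), pruned over intact. Only 0.522% of all genes had a larger absolute change. These values rest on 1049 to 1678 reads in the pruned and 256 to 317 reads in the intact libraries, and the spread between libraries, 3.90% of the mean in pruned and 4.44% in intact roots, was close to the 2.72% and 6.04% that counting alone gives.

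Bradi2g41087 was listed under active transmembrane transporter activity, the class of carriers that move a solute against its gradient, and under plant-type vacuole. It had 61.3, 59.8 and 57.7 RPM in pruned roots, against 22.6, 23.0 and 24.7 RPM in intact roots. All 3 pruned libraries were more than double any intact one. The means were 59.6 ± 1.80 RPM in pruned and 23.4 ± 1.09 RPM in intact roots (SD, n = 3 each), and the log2 fold change was 1.33 (SE 0.059).

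Bradi1g43970, listed under transporter activity and as an integral component of membrane, had 9.14, 8.20 and 7.81 RPM in pruned roots, against 3.71, 3.62 and 3.80 RPM in intact roots. The intact libraries were almost level, and the pruned ones varied more, with pruned replicate 1 the highest. The log2 fold change was 1.07 (SE 0.11), and the intact values came from 68 to 79 reads per library. At such depth counting alone gives a spread of 11.8% of the mean, above the 2.46% seen between the intact libraries.

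Bradi3g48590 was the anion homeostasis gene with the smallest difference. It was not seen under a transport term, but the list of transporter activity was shortened, so its absence there is not certain. It had 193.5, 215.7 and 217.2 RPM in pruned roots, against 119.1, 125.0 and 119.8 RPM in intact roots. Pruned replicate 1, the paired-end library, lay below the other pruned libraries but well above all intact ones. The log2 fold change was 0.78 (SE 0.049) over the 3 pruned libraries and 0.67 when read layout was added as a term, which leaves the estimate to pruned replicate 1. Read layout moved with this gene within the pruned group, and its part in the result was not tested beyond that value. The corresponding values were 2.05 for Bradi3g23066, 1.37 for Bradi2g41087 and 1.20 for Bradi1g43970, so none of the 4 depended on the single-read libraries for its direction.

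Bradi3g48590 was also the only member listed under response to freezing, a term for genes that respond to ice-forming cold. The other 3 genes of that term went different ways: Bradi4g17460 had a log2 fold change of -1.17, Bradi1g65530 of -0.71 and Bradi2g54850 of 0.57. Bradi2g54850 overlapped between the groups, with 1.39, 0.95 and 2.00 RPM in pruned and 0.42, 0.96 and 1.05 RPM in intact roots. These genes were selected on the same contrast and carry no test either.

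Both genes of the iron starvation response were lower in pruned roots. Bradi2g61050 was listed under sequence-specific DNA binding, transcription factor activity and protein dimerization, the terms of a dimeric DNA-binding regulator. It had 42.9, 41.4 and 39.0 RPM in pruned roots, against 66.0, 67.6 and 71.8 RPM in intact roots. Every pruned library stood below every intact one, by at least 23.1 RPM. The means were 41.1 ± 1.95 RPM in pruned and 68.5 ± 3.00 RPM in intact roots (SD, n = 3 each), a log2 fold change of -0.73 (SE 0.056).

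Bradi2g60970 shared the protein dimerization term but was not listed under DNA binding in the lists used. It had 1.45, 1.58 and 1.09 RPM in pruned roots, against 3.52, 3.51 and 2.70 RPM in intact roots. Replicate 3 was the lowest in each group, and the lowest intact library still exceeded the highest pruned one. The log2 fold change was -0.999 (SE 0.16), just short of the 2-fold threshold. This gene was read 25, 45 and 29 times in the pruned and 75, 66 and 49 times in the intact libraries. The spread of 18.4% in pruned and 14.6% in intact roots was close to the 18.0% and 12.8% of counting alone. At so few reads the pseudocount pulls the fold change towards 0, and DESeq2 on the recovered reads gave -1.29.

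Bradi3g55480 was seen only under the ion homeostasis term, in lists of which some were shortened. It had 3.01, 2.29 and 3.24 RPM in pruned roots, against 4.88, 7.61 and 6.45 RPM in intact roots. Its groups did not overlap, but it varied more than the other 6 genes between intact libraries, with an SD of 21.7% of the mean where counting gives 9.16%. The log2 fold change was -1.02 (SE 0.15), the lowest of the 14 term genes in this fit but within 1 SE of Bradi2g60970. Without intact replicate 2, its highest library, it was -0.88, and without intact replicate 1 it was -1.18. With read layout as a term, Bradi3g55480 had a log2 fold change of -0.94, Bradi2g60970 of -0.94 and Bradi2g61050 of -0.67.

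The other 7 genes of the ion homeostasis term were selected in the same way and did not share the pattern of the anion homeostasis genes. After pruning 2 of them were higher and 5 lower, and their median log2 fold change was -0.56, against 0.04 over all genes. The median was 1.20 over the 4 anion homeostasis genes and -0.86 over the 2 iron starvation genes. Over all 7 members, 4 higher and 3 lower, the median of 0.78 is the value of Bradi3g48590 and describes no common shift. None of the other 7 term genes reached a 2-fold change with limma on log2(RPM + 0.5). Their groups did not overlap, which their selection favours and which also held for 56% of all genes. On the recovered reads, where no pseudocount is added to RPM, Bradi5g12920 passed 2-fold with DESeq2 at -1.16, and Bradi3g53380 at -1.02. With read layout as a term in limma, these 2 genes were at -0.87 and -0.52. The anion homeostasis genes were the 4 highest of the 14 with limma on log2(RPM + 0.5), and no other gene of the term carried that annotation. The fourth of them, Bradi3g48590, lay below Bradi3g18977 with DESeq2, at 0.74 against 0.82, and with read layout as a term, at 0.67 against 0.73. By the ratio of mean RPM it was likewise below Bradi3g18977 and Bradi3g22870, at 1.72 against 1.83 and 1.74.

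**Figure D2:**
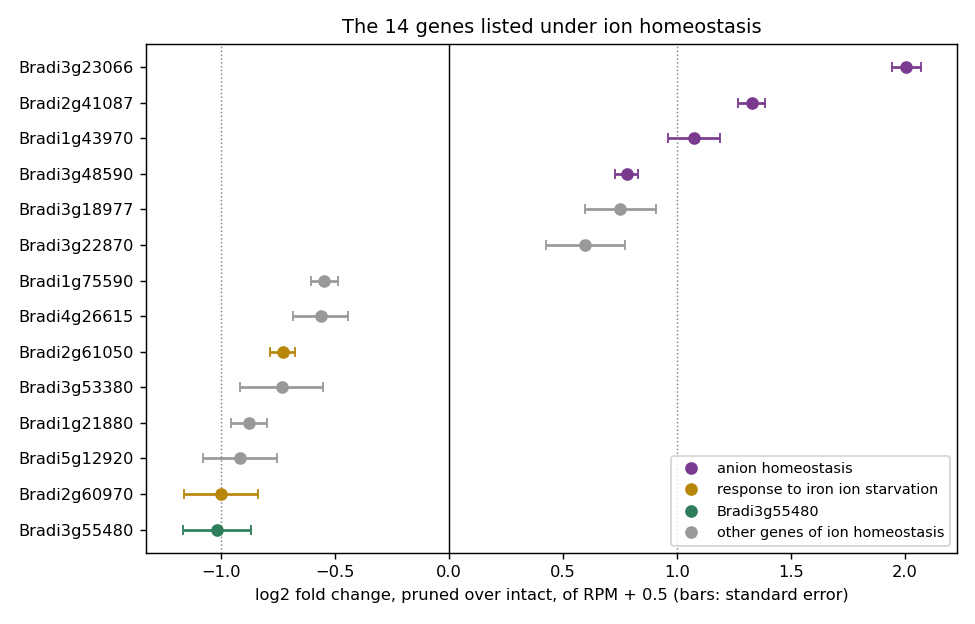
Log2 fold change, pruned over intact roots, of the 14 genes listed under ion homeostasis in the limma fit on log2(RPM + 0.5), with bars for the standard error and dotted lines at 2-fold. The 4 anion homeostasis genes stand at the top (0.78 to 2.00) and Bradi2g60970 and Bradi3g55480 at the bottom (-0.999 and -1.02).

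Transport terms did not mark one direction. Bradi2g41087 shared the terms active transmembrane transporter activity and plant-type vacuole with Bradi3g22870 and Bradi1g75590. Bradi3g22870, which was also listed under ATP metabolic process, had 1.79, 1.86 and 2.19 RPM in pruned and 1.36, 0.96 and 1.05 RPM in intact roots, a log2 fold change of 0.60 (SE 0.17). Bradi1g75590, also listed under response to hormone, had 44.7, 39.8 and 42.6 RPM in pruned and 65.6, 57.4 and 63.5 RPM in intact roots. It was thus lower in every pruned library, with a log2 fold change of -0.55 (SE 0.060).

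Bradi3g53380 was the one term gene listed under nitrate transmembrane transporter activity, the uptake or release of a major anion, yet it was not among the anion homeostasis genes. It had 1.62, 1.20 and 1.21 RPM in pruned roots, against 2.44, 1.92 and 3.47 RPM in intact roots. Its lowest intact library was little above its highest pruned one, and the log2 fold change was -0.73 (SE 0.18). Without intact replicate 3, its highest library, the log2 fold change was -0.54, and with read layout as a term it was -0.52.

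Bradi3g18977, listed under negative regulation of RNA biosynthetic process, was the only term gene besides Bradi2g61050 listed under regulatory region DNA binding. It had 3.59, 3.55 and 3.77 RPM in pruned roots, against 1.88, 2.55 and 1.54 RPM in intact roots, a log2 fold change of 0.75 (SE 0.16). It thus went the opposite way to Bradi2g61050. The remaining 3 genes, for which no further term was seen in the partly shortened lists, were all lower after pruning. Their log2 fold change was -0.92 for Bradi5g12920, -0.88 for Bradi1g21880 and -0.56 for Bradi4g26615.

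The methods of the study set a fold change of 1.5 for changed genes, whereas its results give at least 2-fold. In the limma fit, 6 of the 14 term genes were higher and 6 lower by at least 1.5-fold. At 2-fold, 3 of the 14 were higher and 1 lower in that fit, whose pseudocount pulls low-read genes towards 0. The study's own calls came from edgeR. With the edgeR exact test on the recovered reads, Bradi2g60970 (-1.29), Bradi5g12920 (-1.15) and Bradi3g53380 (-1.03) were also lower by more than 2-fold. The members nearest to 1.5-fold were Bradi3g48590, at 1.72 times the intact mean, and Bradi2g61050, at 0.60. The nearest term genes outside the 7 were Bradi1g75590, at 0.68, and Bradi4g26615, at 0.65, and neither reached 1.5-fold in the limma fit. With the edgeR exact test both passed 1.5-fold, with log2 fold changes of -0.60 and -0.66.

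Bradi2g60970 and Bradi2g61050 have nearby identifiers, and identifier numbers of this genome run along the chromosome. The 6 genes between them were taken by identifier and not by their values, so they could be tested. None of the 6 fell as much as the iron starvation genes on either side, but those were selected as changed genes, which favours that difference. Bradi2g60980, next to Bradi2g60970, had 3.70, 3.94 and 3.32 RPM in pruned roots, against 1.36, 1.92 and 2.37 RPM in intact roots. It was higher in all 3 pruned libraries, with a log2 fold change of 0.82 (SE 0.16) and a limma adjusted p of 0.000166 over all genes. Bradi2g61030, the last before Bradi2g61050, had 7.12, 6.54 and 6.90 RPM in pruned roots, against 3.10, 3.99 and 3.42 RPM in intact roots. This gene was likewise higher in every pruned library, with a log2 fold change of 0.88 (SE 0.12) and a limma adjusted p of 1.81e-06.

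Of the other 4 genes between them, Bradi2g61000 rose by 0.20 on the log2 scale (limma adjusted p = 0.00963). Its pruned replicate 1, the only pruned library counted from both reads as the intact ones were, stood apart at 90.2 RPM. Without that library the change was 0.11 and not called, and with read layout as a term it was 0.39. The part of read layout in these values was not tested. With all 6 libraries its call was also lost in limma without the trend (adjusted p = 0.0993) and in DESeq2 (adjusted p = 0.068). Bradi2g61010 fell by 0.23 (limma adjusted p = 0.000439) and Bradi2g61017 fell by 0.29 (limma adjusted p = 0.012). The call of Bradi2g61017 was lost without pruned replicate 2, at -0.25, without intact replicate 1, at -0.26, and with read layout as a term, at -0.30. Bradi2g60990 had a change of 0.10 and did not pass (limma adjusted p = 0.072). In all 6 genes the groups did not overlap, which also held for 56% of all 19538 genes.

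The 5 genes on either side of each member by identifier, 66 different genes, were taken after the members' values were seen. Of these, 29 were higher, 11 lower and 26 did not pass, so 60.6% were called, against 50.3% of all genes. With a 2-fold change, 6 of the 66 neighbours were called higher in pruned roots and 0 lower. Of all genes, 2.54% were called higher and 1.72% lower at that threshold, so few lower calls are expected among 66 genes. The neighbours with the largest changes were Bradi2g41060, near Bradi2g41087, and Bradi3g48562, near Bradi3g48590.

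Bradi2g41060, listed by the study under oligopeptide transport, had 50.004, 49.436 and 48.646 RPM in pruned roots, against 1.691, 1.224 and 1.488 RPM in intact roots. Its log2 fold change of 4.67 (SE 0.10) was the highest of all 19538 genes and far above the 1.33 of Bradi2g41087. Bradi2g41070, which lies between them, had 104.6, 97.5 and 95.7 RPM in pruned and 48.8, 51.2 and 46.9 RPM in intact roots, a log2 fold change of 1.01. The 5 genes that follow Bradi2g41087 had no 2-fold change, so the rises in this stretch were not of one size.

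Bradi3g55475, directly before Bradi3g55480, had 6.31, 6.79 and 7.01 RPM in pruned roots, against 2.02, 2.45 and 2.59 RPM in intact roots. It was higher in every pruned library, with a log2 fold change of 1.34 (SE 0.13) and a limma adjusted p of 6.74e-09, whereas Bradi3g55480 was lower. A similar pair of adjacent identifiers with opposite directions was Bradi2g60970 with Bradi2g60980. Coordinates and strands were not used here and the strand setting of the counting was not given, so reads of overlapping neighbours could not be told apart.

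**Figure D3:**
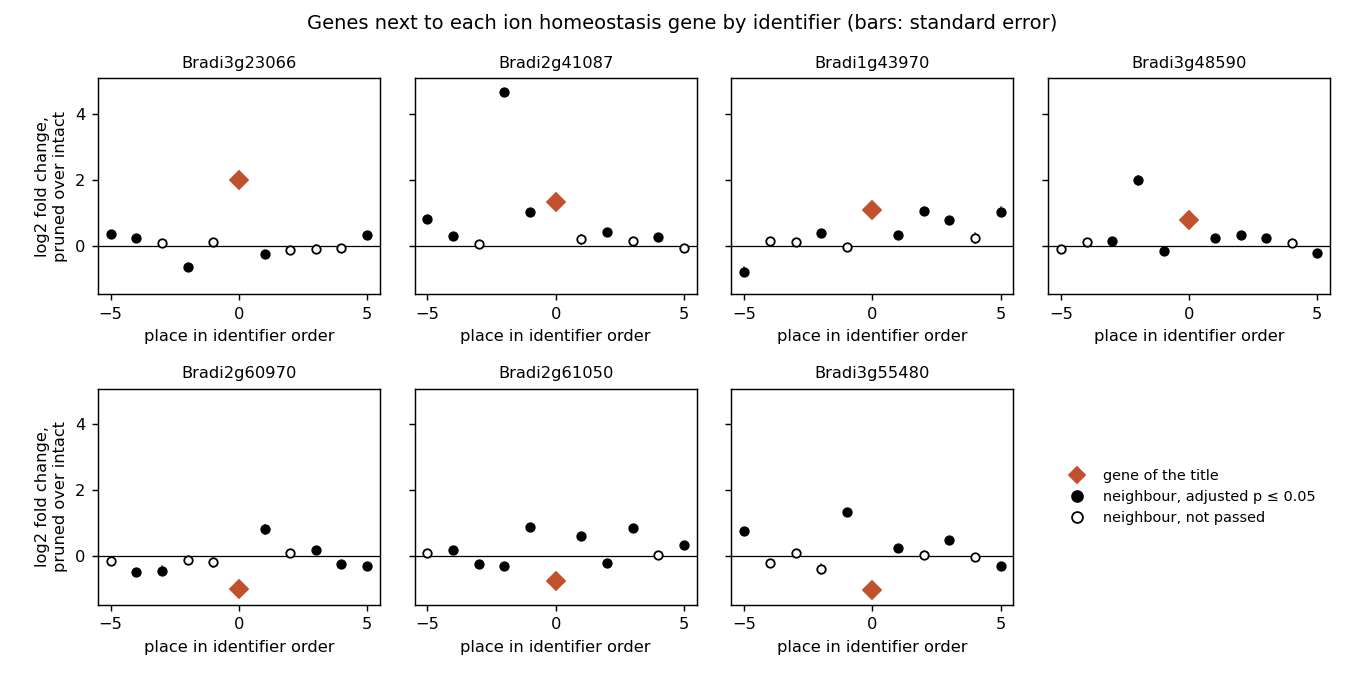
Log2 fold change, pruned over intact roots, of each of the 7 genes (diamond, at place 0) and of the 5 genes before and after it in identifier order, with bars for the standard error. Filled points are neighbours with a limma adjusted p of at most 0.05; Bradi2g41060 stands out at 4.67, and neighbours of the lower genes in the second row lie on both sides of 0.

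The genes whose log2(RPM + 0.5) followed each member most closely over the 6 libraries were sought among 19376 genes with a mean of at least 1 RPM. With 2 groups of 3 libraries, the correlation mostly reflects the difference between the groups and is given as a description. The closest gene was Bradi5g27467 for Bradi3g23066, Bradi3g30870 for Bradi2g41087, Bradi4g05750 for Bradi1g43970, Bradi4g08030 for Bradi3g48590 and Bradi4g16750 for Bradi2g61050, each with Pearson's r above 0.999. For these 5 members, 282 to 608 genes had an r of at least 0.99.

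The low-read members had far fewer close companions, 18 genes for Bradi2g60970 and 6 for Bradi3g55480. Closest to Bradi2g60970 was Bradi4g04440 (r = 0.998), with 7.58 ± 0.578 RPM in pruned and 12.0 ± 0.836 RPM in intact roots (SD, n = 3 each). Closest to Bradi3g55480 was Bradi2g24240 (r = 0.999), with 6.15 ± 0.551 RPM in pruned and 8.94 ± 0.981 RPM in intact roots.

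The directions of the 7 genes held in each of the 18 other settings tried for them, and the fold changes of the low-read genes moved the most. Bradi2g60970 was at -1.29 with the edgeR tests as with DESeq2, and Bradi3g55480 was at -1.20 with all of these, against -0.999 and -1.02 with limma on log2(RPM + 0.5). The number of members called lower with a 2-fold change thus varied between 0 and 2 at that threshold. The number called higher was 3 in all settings at that threshold but the pseudocount of 1, where it was 2 because Bradi1g43970 had 0.99, while Bradi3g23066 and Bradi2g41087 stayed above 2-fold in every setting.

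**Figure D4:**
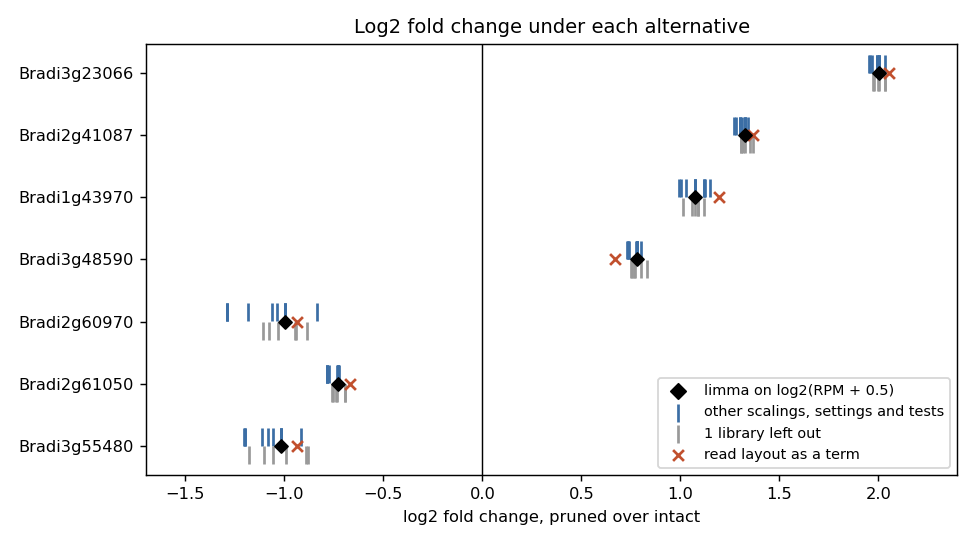
Log2 fold change, pruned over intact roots, of the 7 genes under each setting. Diamonds are limma on log2(RPM + 0.5), blue ticks other scalings, settings and tests, grey ticks fits with 1 library left out and crosses the fit with read layout as a term; no gene crosses 0, and Bradi2g60970 and Bradi3g55480 spread most around -1.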

How the data were processed

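Root RNA of 3 pruned and 3 intact Bd21 samples, which the study calls biological replicates, was sequenced. The authors used SolexaQA and cutadapt for trimming and Tophat for mapping to the phytozome genome, counted uniquely mapped reads per gene (the submitters' processing notes name HTSeq) and deposited RPM; pruned replicates 2 and 3 used R1 reads only. The strand setting and genome release are not given in the sources used here. RPM were whole multiples of 1 read within 0.01 read for 100% of genes, so reads could be recovered. Groups were compared with limma 3.58.1 (R 4.3.3; lmFit, eBayes with trend) on log2(RPM + 0.5), in two-sided tests whose p-values were Benjamini-Hochberg adjusted over 19538 genes; a filter of 0.5 RPM in 3 libraries removed 0 genes. The script was tested on simulated data. Alternatives were pseudocounts, scalings, filters, thresholds, a replicate block, read layout, each library left out, edgeR 4.0.16 and DESeq2 1.42.0.

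The members and lists were chosen with earlier results of these data known. Named genes were the 7 members, the other 7 genes of the term, the gene with the highest Pearson r to each member, and the genes between the iron starvation genes. Genes of response to freezing and neighbours by identifier were added after values were seen. Ontology terms were taken from the study's lists, some of which were shortened. Of 19538 identifiers, 0 matched the RefSeq gene table, so the planned lists of iron and anion pathway genes, green tissue and endodermis markers could not be applied, and no sequence was read. Gene names in the study's tables differed between tables and were not used.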

Additional observations from a re-analysis of the deposited data

How the results depend on the processing

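Over 18 alternatives, 126 of 126 fits of the 7 genes kept their direction and their side of an adjusted p of 0.05. The selection of the 7 genes on this same contrast favours that result. Of 288 fits of 16 other genes, 272 kept both, 15 lost the call, 1 gained it and 0 reversed. The 16 were 10 genes of the ion homeostasis and freezing terms, selected on the same contrast, and 6 between the iron starvation genes, which were not. The 6 neighbours with a 2-fold change in the limma fit kept their direction and their call in 108 of 108 fits, which their choice favours. Not all of them stayed at 2-fold. Bradi2g41070 had a log2 fold change of 0.964 with median-ratio scaling, and Bradi1g43990 had 0.961 with a pseudocount of 1. The genes of highest r were not refitted. The number of members lower with a 2-fold change, 1 with limma, was 2 with a pseudocount of 0.1, median-ratio scaling, quantile normalization, the edgeR quasi-likelihood and exact tests and DESeq2. It was 0 with a pseudocount of 1 and with read layout as a term, 3 with a threshold of 1.5 or none, and 0 to 2 with 1 library left out (2 without pruned replicate 1, 0 without intact replicate 2), because Bradi2g60970 and Bradi3g55480 lie at the threshold. The number higher, 3 with limma, was 2 with a pseudocount of 1 and 4 with a threshold of 1.5 or none. The median of all genes was 0.04 on the log2 scale, against -0.0026 with median-ratio scaling and -0.015 with quantile normalization. With a replicate block, 10141 genes were called, against 9830 without it, and the counts of members stayed at 3 higher and 1 lower with a 2-fold change. Deviations of same-numbered libraries correlated at -0.027, 0.21 and 0.085, and those of different-numbered libraries at -0.21 to 0.13. These values do not settle whether same-numbered samples shared boxes. The main fit did not pair the samples. Members with 25 to 86 pruned reads have the widest errors. The planned test of pathway genes was not run.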
